A study of Mus musculus with 19 samples.

Results

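Chemokine transcripts were described in hepatocytes of young and old mice for a set of 9 genes: Cxcl1, Cxcl9, Cxcl10, Cxcl12, Cxcl13, Ccl2, Ccl6, Ccl9 and Cx3cl1. They were taken by symbol from a table of 24537 genes, and 8 of the 9 passed the filter on low counts; Cx3cl1 did not. The genes were chosen with the difference between the ages in view. Their levels by age and the age contrast are therefore given as a description, without p-values. Poly(A) RNA was sequenced from hepatocytes of 19 male C57BL/6J mice of wild-type genotype, with 1 library per mouse. The young group was 10 mice labelled 5 months old (140 or 163 days by birth and cull dates) and the old group 9 mice labelled 24 months old (719 or 742 days). The mice were culled on 2 days, 23 days apart: the first day held 5 young and 5 old mice, the second 5 young and 4 old. Mice are named by their library number.

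Chemokines are small secreted proteins that attract leukocytes by binding G protein-coupled receptors on them. In the liver they can be made by hepatocytes and by the macrophages, endothelial cells and stellate cells around them, and many are induced by interferons or by inflammatory cytokines acting through the transcription factor NF-kB. Cxcl9 and Cxcl10 draw activated T cells through the receptor Cxcr3. Cxcl13 draws B cells through Cxcr5, and Ccl2 draws monocytes through Ccr2.

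Promoter sequence was read from RefSeq (build GRCm38.p6) as the 250 bases before the annotated start, and was found for 8 of the 9 genes; Ccl2 had no entry. Those of Cxcl1, Cxcl9 and Cxcl10 are printed because they held matches to the patterns searched and because Cxcl9 and Cxcl10 varied together within age and cull day, and that of Cxcl13 because its level covered the widest range. Each is written 5′ to 3′ on the gene's strand, with the matches in capitals.
Cxcl1: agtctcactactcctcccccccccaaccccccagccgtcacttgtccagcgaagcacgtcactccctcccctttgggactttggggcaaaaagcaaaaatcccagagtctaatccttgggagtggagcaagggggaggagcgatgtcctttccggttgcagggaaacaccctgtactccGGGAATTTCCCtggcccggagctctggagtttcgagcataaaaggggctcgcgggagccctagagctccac
Cxcl9: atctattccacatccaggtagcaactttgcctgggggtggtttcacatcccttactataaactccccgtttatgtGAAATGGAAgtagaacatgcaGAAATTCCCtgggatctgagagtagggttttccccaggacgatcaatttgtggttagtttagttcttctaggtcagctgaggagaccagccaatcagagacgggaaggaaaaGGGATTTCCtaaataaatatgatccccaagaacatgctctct
Cxcl10: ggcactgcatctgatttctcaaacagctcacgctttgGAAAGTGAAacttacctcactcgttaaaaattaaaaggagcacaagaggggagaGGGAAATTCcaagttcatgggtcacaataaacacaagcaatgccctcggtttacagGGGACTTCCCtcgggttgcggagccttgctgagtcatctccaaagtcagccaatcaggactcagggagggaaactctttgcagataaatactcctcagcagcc
Cxcl13: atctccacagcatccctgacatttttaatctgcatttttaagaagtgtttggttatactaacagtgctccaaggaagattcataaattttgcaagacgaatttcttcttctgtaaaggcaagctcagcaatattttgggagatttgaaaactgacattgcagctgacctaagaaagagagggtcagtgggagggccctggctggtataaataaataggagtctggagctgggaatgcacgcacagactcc
The stretches are chr5:90890995-90891244 (plus strand) for Cxcl1, chr5:92328080-92328329 (minus strand) for Cxcl9, chr5:92348890-92349139 (minus strand) for Cxcl10 and chr5:95956689-95956938 (plus strand) for Cxcl13. The patterns were chosen after the sequences had been read, and both strands were searched. GAAANNGAA, the core of the interferon-stimulated response element, matched Cxcl10 at 213 to 205 and Cxcl9 at 175 to 167 bases before the start, and 7.13% of 32851 promoters held it. GGGANNTNC, a loose form of the NF-kB site, matched Cxcl1 at 71 to 63 bases before the start, with an overlapping match on the other strand at 69 to 61. It matched Cxcl10 at 159 to 151 and at 103 to 95 bases before the start, the latter overlapped by a match on the other strand at 102 to 94. Cxcl9 held it at 42 to 34 bases and, on the other strand, at 154 to 146 bases before the start. Cx3cl1 held it once on the other strand, at 235 to 227 bases, and 12.5% of all promoters did. TTCNNNGAA, a form of the STAT site, was in 7.02% of promoters and in none of the 8 examined, and the 250 bases of Cxcl13 held none of the 3 patterns. A match is a run of letters and not a measured binding site.

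Library totals over genes ran from 17381307 to 20287481 counts. The 7 hepatocyte markers summed to between 83869 and 189928 CPM (counts scaled to a common effective library total) in every library. The lowest sums were those of young 1184, 1186 and 1188, at 83869 to 86753 CPM against a young median of 130681 CPM, and among old mice that of 1187, at 113632 CPM against an old median of 155616 CPM. These 4 libraries stood apart in other genes too. Old mouse 1187 had summed levels of 12 macrophage markers of 2582 CPM, against at most 679 CPM in the other old mice and 95.4 to 473 CPM in the young. Young mice 1184, 1186 and 1188, all of the first cull day, had summed levels of 15 acute phase genes of 54759 CPM or more, against at most 20760 CPM in the other young mice and 20119 to 62842 CPM in the old. Most results that rest on these 4 libraries are given with and without them. In a bulk preparation, fewer cells of a type and less RNA per cell cannot be told apart. The replicates are separate mice only as far as the labels tell, and p-values measure the spread between these libraries.

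Cxcl9 and Cxcl10, both ligands of Cxcr3 and known interferon-induced genes, had overlapping levels in the age groups and were far higher in 1 old mouse. Cxcl9 (NM_008599, mm10 chr5:92321331-92328079, minus strand) ran from 8.68 CPM through a median of 12.4 CPM to 39.0 CPM in the 10 young mice, and from 7.90 CPM through 11.7 CPM to 124 CPM in the 9 old mice. The highest young value was that of mouse 1186 and the highest old value that of mouse 1187; the other old mice were at 17.5 CPM or lower. Cxcl10 (NM_021274, chr5:92346639-92348889, minus strand) ran from 0.843 CPM through 1.70 CPM to 8.36 CPM in young mice, again highest in 1186, and from 1.65 CPM through 2.27 CPM to 33.3 CPM in old mice, again highest in 1187. The other old mice were at 3.07 CPM or lower, so 1187 alone lay above all young mice for either gene. The log2 fold change of old against young, with cull day in the model, was 0.50 (SE 0.46) for Cxcl9 and 1.03 (SE 0.57) for Cxcl10. Without mouse 1187 it was -0.32 for Cxcl9 and -0.00 for Cxcl10, and without young 1184, 1186 and 1188 as well it was -0.14 and 0.31. With a score of other cells in the model (35 tested macrophage, endothelial and stellate markers, beside cull day) both changed sign, to -1.12 (SE 0.35) and -0.88 (SE 0.46). That score ran from 2.39 to 4.00 in young mice and from 2.55 to 5.72 in old mice, highest in 1187. Because it was mostly higher in old mice, fits that include it cannot tell age and other cells apart.

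Cxcl13, the B cell attractant, covered the widest range of the set. Cxcl13 (NM_018866, chr5:95956939-95961068, plus strand) ran from 0.105 CPM through 0.582 CPM to 2.45 CPM in young mice, and from 0.312 CPM through 2.22 CPM to 498 CPM in old mice. The 498 CPM of mouse 1187 were 11419 counts, the next highest old mouse was 1242 at 20.8 CPM, and mice 1181 and 1236 were at 4.25 and 3.5 CPM. These 4 of 9 old mice lay above all young mice, and 8 of 9 lay above the young median. Young mice 1180 and 1188 had only 2 and 3 counts of Cxcl13, under and at the floor of 3 counts per library. This limits the precision of the young level and of the fold change. The log2 fold change was 5.55 (SE 1.37) over all libraries, 2.16 (SE 0.70) without 1187, and 3.15 (SE 0.70) without 1187 and young mice 1184, 1186 and 1188. With the score of other cells it was -1.07 (SE 0.66), a change of sign. By limma-voom it was 2.83 (SE 1.57), and Cxcl13 was then not past the threshold. The summed level of the 10 B cell markers was 0.279 to 2.86 CPM in young mice and 1.46 to 19.9 CPM in old mice, highest in 1187 (at most 5.01 CPM in the other old mice). Markers of lymphoid stroma, the cells that make Cxcl13 in lymphoid organs, were at or near 0: Madcam1 and Pdpn had no count in any library. The part of these other cells in the level of Cxcl13 was not tested.

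**Figure D1:**
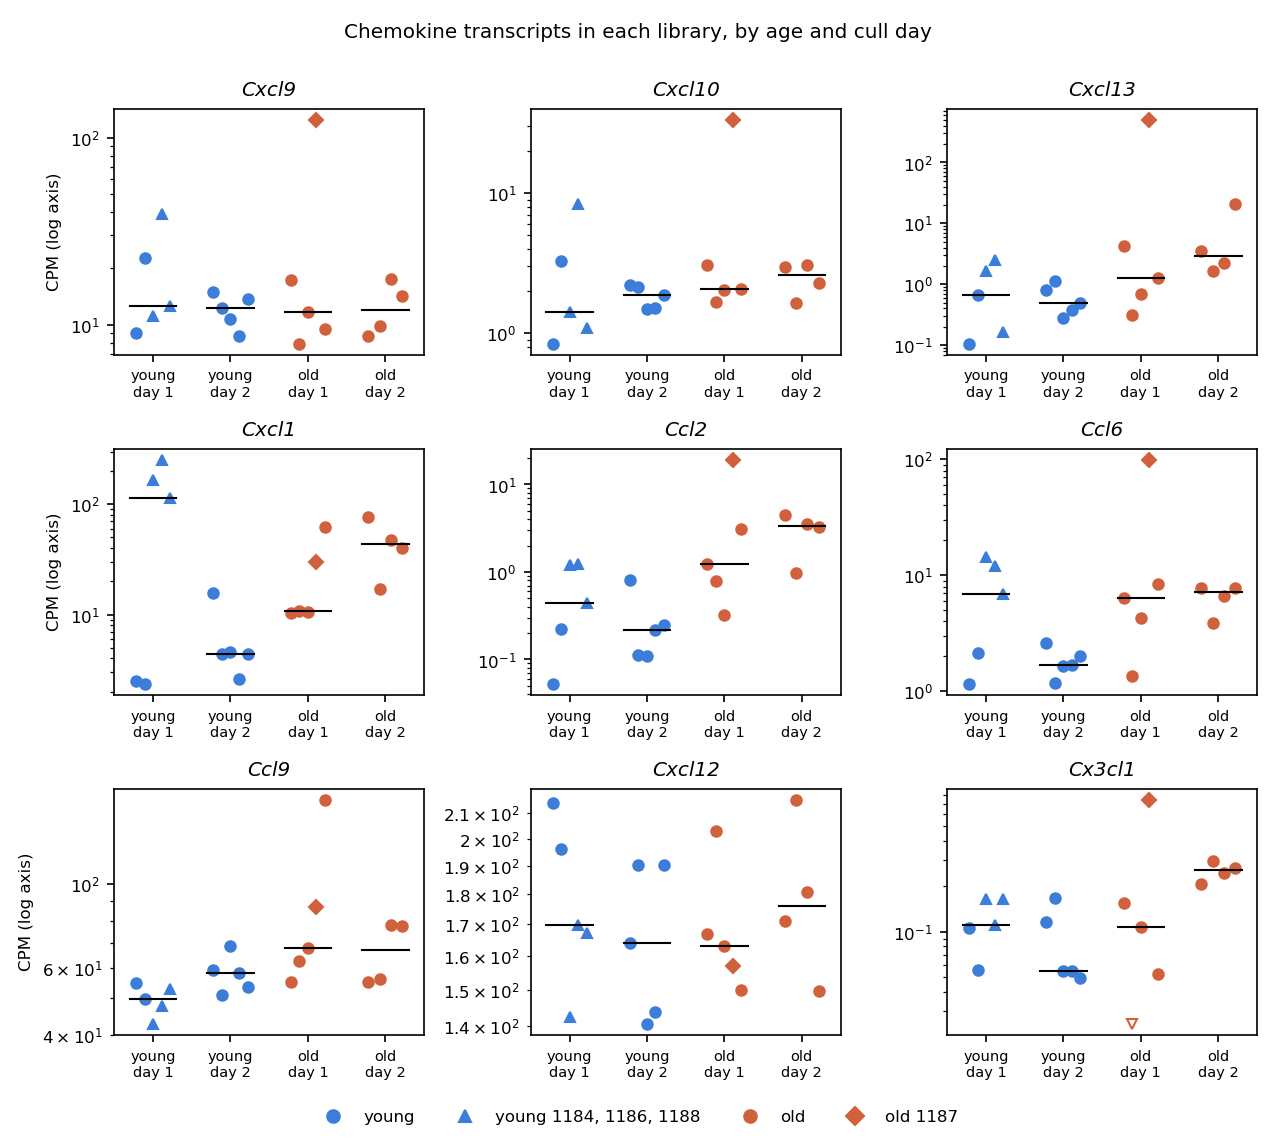
Level of each chemokine in every library, in CPM on a log axis, for young (10) and old (9) mice, with the median as a black bar and an open triangle for a library without a count (Cx3cl1 in old mouse 1183). Mouse 1187 was the highest of the old mice for Cxcl9, Cxcl10, Cxcl13, Ccl2, Ccl6 and Cx3cl1, and young mice 1184, 1186 and 1188 stood above the other young mice for Cxcl1.

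Cxcl1, the neutrophil attractant that binds Cxcr2, was high in 3 young mice and otherwise low in the young. Cxcl1 (NM_008176, chr5:90891245-90893115, plus strand) ran from 2.36 CPM through 4.49 CPM to 251 CPM in young mice and from 10.4 CPM through 29.7 CPM to 76.8 CPM in old mice. Young mice 1184, 1186 and 1188 were at 164, 251 and 114 CPM, above every old mouse, while the other 7 young mice were at 2.36 to 15.8 CPM. All 9 old mice lay above the young median, and 6 of the 9 lay above all of those 7 young mice. Its log2 fold change was 0.20 (SE 1.06) over all libraries and 3.01 (SE 0.51) without the 3 young mice. On the first cull day, which held those mice, it was -2.11 (SE 1.11), and on the second it was 2.84 (SE 0.50). It was -0.74 without a cull day term and -1.21 (SE 0.88) with the score of other cells, against the sign over all libraries. The acute phase genes were high in the same 3 young mice, and the part of whatever raised them in the level of Cxcl1 was not tested.

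Ccl2, the monocyte attractant, was low in all young mice. Ccl2 (NM_011333, chr11:82035577-82037452, plus strand) ran from 0.053 CPM through 0.235 CPM to 1.23 CPM in young mice and from 0.322 CPM through 3.08 CPM to 18.99 CPM in old mice, highest in 1187 and then 1236 at 4.53 CPM. All 9 old mice lay above the young median and 6 lay above all young mice, of which 1186 and 1184 were the highest. Young mice 1180, 1237 and 1239 had only 1, 2 and 2 counts of Ccl2, under the floor of 3 counts per library, which limits the precision of the young level and of the fold change. The log2 fold change was 3.12 (SE 0.67) over all libraries, 2.18 without 1187, 3.32 without all 4 libraries that stood apart, and 0.99 (SE 0.48) with the score of other cells in the model.

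Ccl6 and Ccl9 are neighbouring genes on chromosome 11 that act through Ccr1 on monocytes and other myeloid cells. Ccl6 (NM_009139, chr11:83587886-83593087, minus strand) ran from 1.16 CPM through 2.07 CPM to 14.4 CPM in young mice, where 1184, 1186 and 1188 were the 3 highest at 14.4, 12.1 and 6.91 CPM. In old mice it ran from 1.35 CPM through 6.60 CPM to 98.4 CPM, with 1187 highest and the others at 8.45 CPM or lower. Against the 7 other young mice, 8 of 9 old mice were higher than all of them. Old against young gave a log2 fold change of 1.75 (SE 0.62) over all libraries, 0.62 without 1187, 2.55 without the 3 young mice, 1.75 (SE 0.31) without all 4, and -0.86 (SE 0.28) with that score of other cells in the model, a change of sign. Ccl6 was past the threshold in 8 of the 19 fits that left out 1 library, and was not by limma-voom (1.13) or without a cull day term (1.82). The macrophage, stellate and endothelial markers moved with it, as given below.

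Ccl9 (NM_011338, chr11:83572917-83578636, minus strand) lay in a narrow range in young mice and in a wider range in old mice. It ran from 42.8 CPM through 53.3 CPM to 68.5 CPM in young mice and from 55.1 CPM through 67.7 CPM to 166 CPM in old mice, where 1189 was the highest and 1187 the second. All 9 old mice lay above the young median, and 4 lay above all young mice. Its log2 fold change was 0.53 (SE 0.18), and leaving out 1 library at a time gave 0.33, without 1189, to 0.60. It was 0.82 (SE 0.27) on the first cull day, 0.20 (SE 0.13) on the second and 0.41 (SE 0.21) without young 1184, 1186 and 1188, and in none of these was it past the threshold. With the score of other cells in the model it was again 0.53 (SE 0.23), and Ccl9 was not past the threshold.

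Cxcl12, a homeostatic ligand of Cxcr4 that holds blood progenitors and lymphocytes in tissues, was at nearly the same level in both ages. Cxcl12 (NM_001012477, chr6:117168535-117181368, plus strand) ran from 141 CPM through 169 CPM to 214 CPM in young mice and from 150 CPM through 167 CPM to 215 CPM in old mice. A log2 fold change of 0.01 (SE 0.09) was found, and it stayed between -0.04 and 0.05 when any 1 library was left out. The ranges almost coincided.

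Cx3cl1, the membrane-bound ligand of Cx3cr1, was near the limit of detection. Cx3cl1 (NM_009142, chr8:94772180-94782426, plus strand) had 1 to 3 counts in each young library and 0 to 17 counts in each old library, the 17 being those of mouse 1187. All young libraries were at or under the floor of 3 counts, and no fold change is reported.

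**Figure D2:**
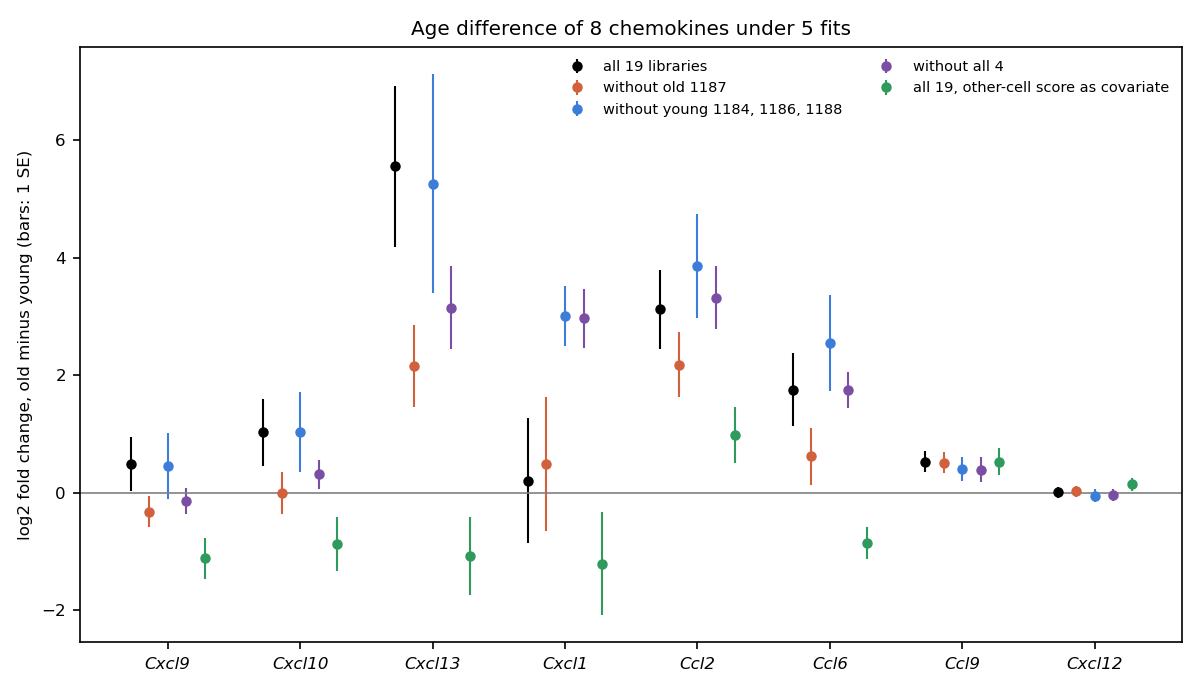
Log2 fold change of old against young for the 8 chemokines that passed the filter, under 5 fits, with bars of 1 SE. Cxcl13 moved from 5.55 to 2.16 without mouse 1187 and to -1.07 with the other-cell score, Cxcl1 moved from 0.20 to 3.01 without the 3 young mice, and Cxcl12 stayed near 0.

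Over the set, 4 of the 8 genes that passed the filter had an adjusted p below the threshold in edgeR's quasi-likelihood test of age (Cxcl13, Ccl2, Ccl6 and Ccl9), all higher in old mice. Of all 12269 genes tested, 30.9% passed in either direction and 16.3% were higher in old. Since the genes were chosen on this contrast, nothing is read from the count. Without 1187 the count was 3, with 24.5% of all genes called, and without the 3 young mice it was 4, with 27.2% called, Cxcl1 then passing and Ccl9 not. Without all 4 libraries it was also 4, with 28.3% called. On the second cull day alone 4 passed, with 19.3% of genes called, and on the first none did, with 3.67% called. By limma-voom 2 passed (Ccl2 and Ccl9), with 27.5% called. With the other-cell score 2 passed, both lower in old mice (Cxcl9 and Ccl6), with 13.6% called. For none of the 9 were the age groups separate in CPM, and 1.72% of all genes tested were separate in that way. Without the 3 young mice the groups still overlapped for each of the 9, and 4.09% of all genes were separate.

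Per base of transcript, the order of the genes in young mice was led by Cxcl12 with a median of 29.8 CPM per kb, followed by Ccl9 (17.8), Cxcl1 (4.76), Cxcl9 (4.28), Cxcl10 (1.55), Ccl6 (1.45), Cxcl13 (0.503) and Ccl2 (0.293). In old mice the order of medians was Cxcl1 (31.5 CPM per kb), Cxcl12 (29.5), Ccl9 (22.6), Ccl6 (4.61), Cxcl9 (4.03), Ccl2 (3.84), Cxcl10 (2.07) and Cxcl13 (1.92). Cx3cl1 was left out of the order because its counts were at or under the floor in all young libraries. Among young mice, Cxcl12 was above Ccl9 and Cxcl9 above Cxcl10 in 10 of 10, but Cxcl1 was above Cxcl9 in 6 of 10 and Cxcl10 above Ccl6 in 6 of 10. Among old mice, Cxcl1 was above Cxcl12 in 5 of 9, Ccl6 above Cxcl9 in 4 of 9 and Ccl2 above Cxcl10 in 4 of 9, so these neighbours did not differ beyond their spread.

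Cull day was not the contrast on which the genes were chosen, and was tested. The 4 libraries that stood apart were all of the first day. The genes were chosen with earlier results of these data known, so the choice may bear on this test too. No chemokine of the 8 passed by edgeR's test of second against first cull day, while 12.3% of all genes did; Ccl6 and 3 others had an unadjusted p under 0.05. Ccl6 was nearest the threshold, with a log2 fold change of -1.94 and an adjusted p of 0.0524, and it passed when young 1180 or 1182 or old 1181, 1183 or 1185 was left out (adjusted p 0.0195 to 0.0497) and by DESeq2 (adjusted p 0.0165). It was -0.80 by limma-voom (adjusted p 0.509), -0.89 without 1187 (0.227), -1.29 without the 3 young mice (0.370) and 0.28 without all 4 (0.586), a change of sign. Cxcl13 was at -3.00 (adjusted p 0.157), Cxcl9 at -1.03 (0.146) and Cxcl10 at -1.22 (0.164) in the same test. Without 1187, a mouse of the first day, these were 0.82 for Cxcl13, with the sign turned, -0.31 for Cxcl9 and -0.31 for Cxcl10 (adjusted p 0.463, 0.445 and 0.587). By limma-voom they were -0.09, -0.53 and -0.48. Without the 3 young mice, all of the first day, 0 of 12354 genes (0.0%) passed the test of cull day, with 2474 at an unadjusted p under 0.05, and without 1187 as well 173 of 12273 genes (1.41%) did. With the score of other cells in the model 1 chemokine passed, Ccl6 at -0.96 (adjusted p 0.00867), as did 17.4% of all genes. The interaction of age and cull day called 0 of 12269 genes (0.0%) by edgeR, with 799 at an unadjusted p under 0.05, and 20 by DESeq2. Cxcl1 had the largest interaction of the set, 4.95 (SE 1.36), with an adjusted p of 0.623 by edgeR and 0.0455 by DESeq2. It was -0.51 (SE 1.06) without the 3 young mice (adjusted p 1.00). On the first day the old mice lay below 3 of the 5 young mice for Cxcl1, and on the second each of the 4 old mice exceeded the 5 young ones.

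Differences between mice within 1 age and cull day did not use the age contrast, and were measured by correlating log2 CPM centred on the 4 age by day means. Of 28 pairs of the 8 chemokines, 10 passed after Benjamini-Hochberg adjustment of permutation p-values, 9 positive and 1 negative. Cxcl9 and Cxcl10 gave r = 0.95 and rho = 0.85 (adjusted p = 0.00252 and 0.00791, n = 19), with r = 0.98 on the first day, 0.49 on the second and 0.78 without the 2 libraries farthest from the median. The relation was 0.88 without 1187 (adjusted p = 0.00482), but 0.79 without all 4 libraries that stood apart (adjusted p = 0.196, n = 15), so it no longer passed. Ccl2 and Ccl6 gave r = 0.89 and rho = 0.92 (adjusted p = 0.00252 and 0.00028), and r = 0.92 on the first day, 0.93 on the second and 0.87 without the 2 farthest libraries. It was 0.80 without 1187 and 0.67 without all 4 (adjusted p = 0.202). Cxcl1 and Ccl2 gave r = 0.70 in the 16 libraries without the 3 young mice (adjusted p = 0.0453) and 0.83 without 1187 as well (adjusted p = 0.196). Cxcl13 and Cxcl9 gave r = 0.87 and rho = 0.72 (adjusted p = 0.0156 and 0.0278), with r = 0.93 on the first day and 0.33 on the second. Without 1187 they gave r = 0.59 and rho = 0.54 (adjusted p = 0.111 and 0.179), so the relation no longer passed.

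**Figure D3:**
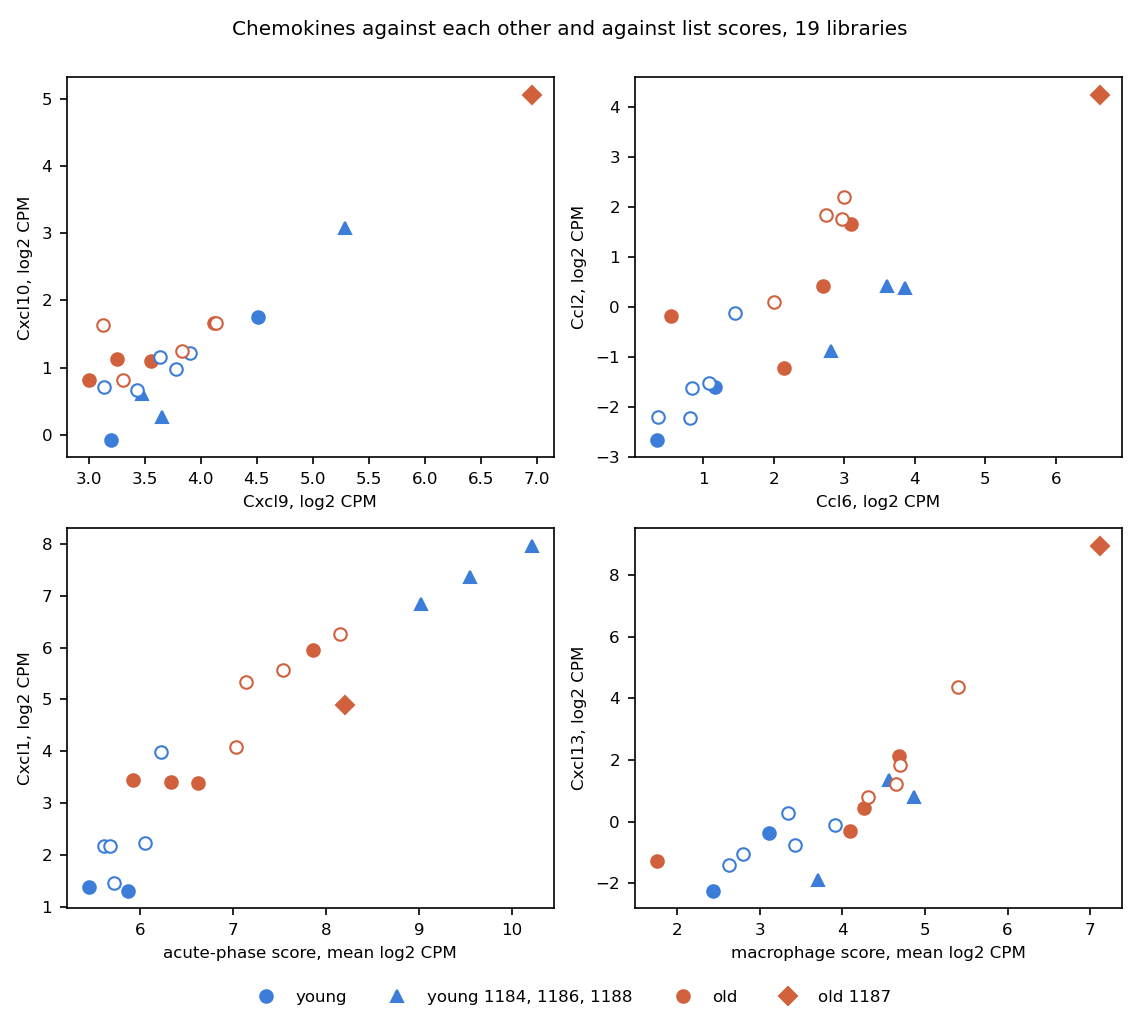
Pairs of chemokines, Cxcl1 against the acute phase score and Cxcl13 against the macrophage score in the 19 libraries. Values are in log2 CPM, with filled symbols for the first cull day and open symbols for the second. Cxcl9 and Cxcl10 were both highest in mouse 1187 and, among the young, in 1186, and Ccl2 and Ccl6 were both highest in 1187.

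The single negative pair, Cxcl12 and Ccl6, gave r = -0.60 and rho = -0.65 (adjusted p = 0.0221 and 0.0278), with -0.75 on the first day and -0.51 on the second, but -0.45 without the 3 young mice (adjusted p = 0.175), where it no longer passed. No negative pair passed when library totals alone set the scale. In all, 5 pairs passed without 1187, 9 without the 3 young mice (all positive) and none without all 4. Ccl9 passed with no other chemokine under any of these settings.

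Each of the 8 was also compared, in the same way, with the mean log2 CPM of macrophage, endothelial, stellate and acute phase genes, which makes 32 relations, of which 21 passed (19 positive and 2 negative). Ccl6 and the macrophage score gave r = 0.94 and rho = 0.85 (adjusted p = 0.000512 and 0.00184), with 0.96 on the first day and 0.61 on the second, and 0.86 without all 4 libraries (adjusted p = 0.0294). Over the 19 libraries Ccl6 also gave r = 0.90 with the stellate and 0.84 with the endothelial score (adjusted p = 0.000823 and 0.00108). On the second day these were 0.47 and 0.66. Cxcl13 and the macrophage score gave r = 0.88 and rho = 0.81 (adjusted p = 0.00032 and 0.00192), with 0.89 on the first day and 0.80 on the second, and 0.76 without all 4 (adjusted p = 0.0294). With the endothelial and stellate scores Cxcl13 gave r = 0.84 and 0.77 over the 19 libraries (adjusted p = 0.000823 and 0.00707). On the second day these were 0.56 and 0.32. Cxcl1 followed the acute phase score in the 16 libraries without the 3 young mice, with r = 0.78 and rho = 0.78 (adjusted p = 0.00761 and 0.00747), and Ccl2 did so with r = 0.85 (adjusted p = 0.00434). Cxcl9 gave r = 0.76, 0.71 and 0.69 with the macrophage, endothelial and stellate scores over the 19 libraries (adjusted p = 0.0310, 0.0299 and 0.0420). Without all 4 libraries its r with the endothelial score was 0.68 (adjusted p = 0.0294). Ccl9 passed with none of the 4 scores, its r lying between 0.04 and 0.15. In all, 11 relations passed without 1187, 17 without the 3 young mice and 6 without all 4. Those without the 3 young mice and without all 4 were positive, as were the 18 that passed when library totals alone set the scale, so neither negative relation was called there.

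The named genes most like each chemokine over all 19 libraries, by Spearman rho of log2 CPM, were different for each. They were Cyb561, Hpx and Lcn2 for Cxcl1 (rho 0.95, 0.94 and 0.94), Plac8, Cd38 and Arhgef2 for Ccl2 (0.95, 0.95 and 0.94), and Igsf6, Rac2 and Fyb for Cxcl13 (0.94 each). For Ccl6 they were Ssbp4, Irf8 and Ifi207 (0.95, 0.95 and 0.94). Likeness was weaker for Cxcl9 (Mbd4 at 0.79, Atp13a2 at 0.76, Mms22l at 0.74), Cxcl10 (Zfp414, Mbip and Itprip at 0.77) and Cxcl12 (S1pr1 and Smad3 at 0.76, Gtf2i at 0.74). Tmem17, Pde1a and Tspan2 led for Ccl9 (0.84, 0.83 and 0.83), but within age and cull day their rho with it was 0.31, 0.45 and 0.53. These rho are descriptions over libraries that share their scaling, and 1187 and the 3 young mice bear on them.

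The rest of the chemokine family was listed by family name, with earlier results of these data known. Of the 32 other ligands 6 passed the filter, and 3 rose with age by edgeR's test and 0 fell, where 16.3% of all genes tested were higher in old mice. Cxcl16, a ligand of Cxcr6, was at a median of 4.42 CPM in young and 8.07 CPM in old mice, a log2 fold change of 1.23 (SE 0.33, adjusted p = 0.00935). Ccl24, an eosinophil attractant, rose by 1.72 (SE 0.59, adjusted p = 0.0328), and Cxcl11, which was below 1 CPM on average and is named because the count is small, by 0.73 (SE 0.25, adjusted p = 0.0323). Without 1187, or without any one of young 1180, 1186 and 1237, 1 ligand passed; without 1187 it was Cxcl16. With no filter beyond 1 count, 9 of 29 passed, where 24.9% of all genes did. Several ligands and receptors that did not pass the filter were near 0 in most mice and high in 1187: Pf4 was at 54.1 CPM there, Ccr3 at 29.4 CPM, Ccl5 at 16.4 CPM, Ccl8 at 10.7 CPM and Ccl7 at 9.08 CPM, and the highest of the other old mice were at 0.536, 0.640, 0.949, 0.107 and 0.730 CPM. Of the 9 old mice, 9 lay above all young mice for Ccl7, 8 for Ccl5, 5 for Pf4 and 3 each for Ccr3 and Ccl8. Apart from 1187 these levels were under 1 CPM. These 5 genes were named after their values were seen. Mouse 1187 was the highest of all 19 for 18 of 29 other ligands with a count and 15 of 22 receptors, as for 6 of the 9 chemokines, against 19.9% of the genes that passed the filter. Most of these ligands and receptors did not pass it, so that share is one over genes with higher counts.

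Of the 23 receptors 4 passed the filter and 2 rose (1 with the score of other cells in the model), against the same 16.3% of all genes. With no filter beyond 1 count 10 of 22 passed, where 24.9% of all genes did. Ackr2, a decoy receptor for inflammatory CC chemokines, went from a median of 1.51 CPM in young to 2.92 CPM in old mice, a log2 fold change of 1.07 (SE 0.18, adjusted p = 0.000427), and 8 of 9 old mice lay above all young mice. Ccrl2, an atypical receptor, rose by 1.40 (SE 0.34, adjusted p = 0.00606). The receptors of the chemokines described above were low: Cxcr3 had a median of 0.082 CPM in young and 0.197 CPM in old mice (2.62 CPM in 1187), Cxcr5 0.028 and 0.107 CPM (0.698 CPM in 1187), and Ccr2 0.171 and 0.412 CPM (6.37 CPM in 1187). None of these 3 passed the filter. The protease list (3 genes, among them Dpp4, which trims Cxcl10 and Cxcl12) had no gene past the threshold.

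**Figure D4:**
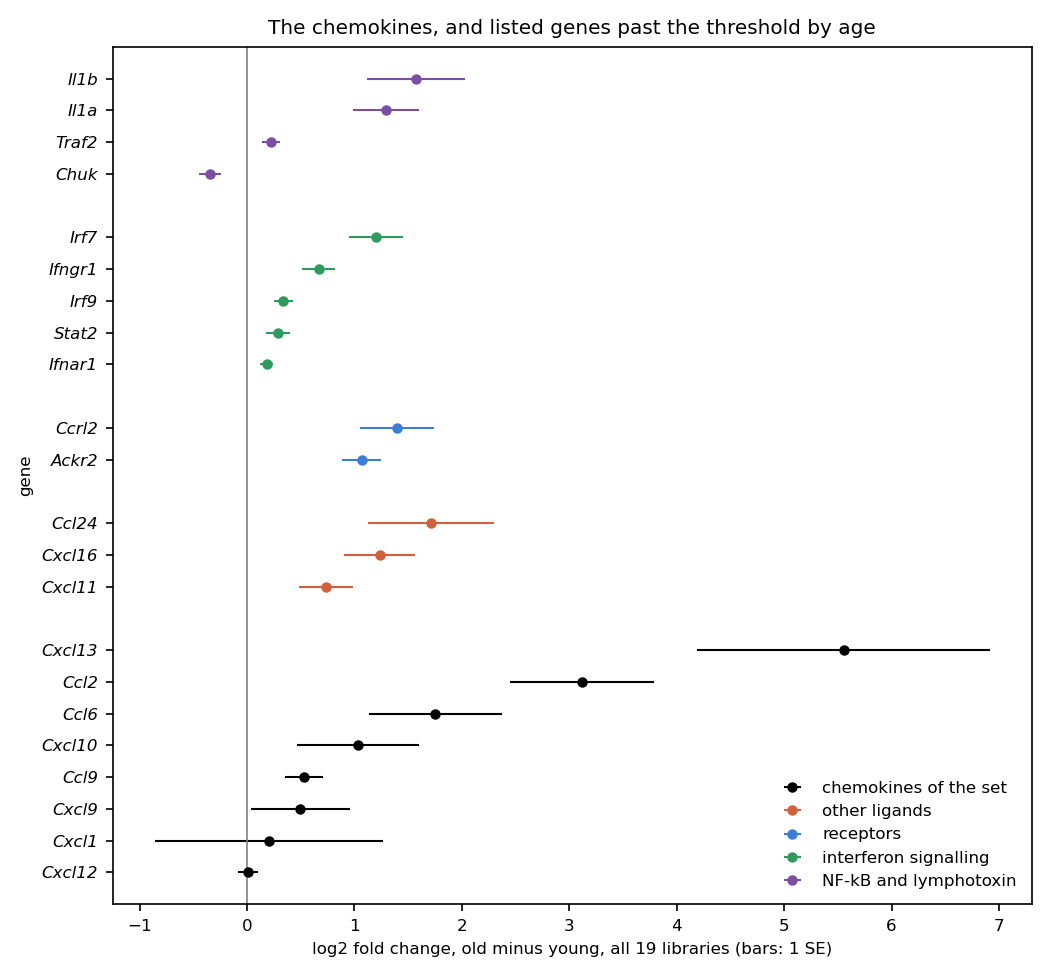
Log2 fold change of old against young, with bars of 1 SE, for the 8 chemokines of the set that passed the filter and, of the other ligands, receptors, interferon signalling and NF-kB and lymphotoxin lists, for the genes past the threshold by age. All of those listed genes lie above 0 except Chuk, and Cxcl12 lies at 0.

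Upstream genes were read from 2 lists. Of 14 tested interferon signalling genes 5 rose with age and 0 fell, where 30.9% of all genes passed and 16.3% were higher in old, and 1 passed with the score of other cells in the model. The median log2 fold change was 0.25 over the list against -0.00 over all genes. Irf7, a factor that amplifies interferon responses, rose by 1.20 (SE 0.25, adjusted p = 0.00227), Ifngr1, a subunit of the interferon gamma receptor, by 0.67 (adjusted p = 0.00399), Irf9 by 0.34 (adjusted p = 0.00997), Ifnar1 by 0.18 (adjusted p = 0.0251) and Stat2 by 0.29 (adjusted p = 0.0499). For Irf7, the highest young value was 35.6 CPM and 8 of 9 old mice lay above it, while the same comparison held in 1 of 9 for Cxcl9 and for Cxcl10. Of 23 tested NF-kB and lymphotoxin genes 4 passed, where 30.9% of all genes did, and 3 rose (Il1a by 1.29, adjusted p = 0.00493; Il1b by 1.57, adjusted p = 0.0152; Traf2 by 0.22, adjusted p = 0.0489). Chuk, which encodes a kinase that activates NF-kB, fell by 0.34 on the log2 scale (adjusted p = 0.0145). Without young 1186 the count was 9, with 29.7% of all genes called, and without all 3 young mice it was 10, with 27.2% called. With the score of other cells it was 1.

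Of the other cell types, 11 of 12 macrophage markers, 8 of 11 endothelial and 12 of 12 stellate markers were higher in old mice by the same test, where 16.3% of all genes were. Without 1187 the counts were 1, 6 and 9, where 1523 of 12277 genes were higher. Their summed levels were 57.5 to 2582 CPM, 166 to 557 CPM and 145 to 512 CPM in old mice, and 95.4 to 473 CPM, 157 to 282 CPM and 51.5 to 136 CPM in young mice. These markers moved with Cxcl13, Ccl2 and Ccl6 across age, and their part in the differences by age was not tested. The covariate given above cannot test it, because the score itself was mostly higher in old mice.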

How the data were processed

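Hepatocytes had been isolated by perfusion in steps and RNA extracted with Trizol and chloroform, followed by stranded paired-end sequencing, per the labels' protocols. The authors deposited estimated counts in 1 table of genes by libraries, written by HOMER for mm10, in exons of RefSeq transcripts with transcripts condensed to genes, per the file headers. STAR and HOMER are named, without versions, in the submitters' processing notes. The strand setting and the handling of reads with several matches are not given in the sources used here, so counts of neighbouring or near-identical genes are uncertain.

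Since 29.2% of values were not whole, counts were rounded (ties to even); the test had been planned for plain counts. edgeR 4.0.16 (R 4.3.3) used TMM scaling, filterByExpr (minimum count 10) by age, a cull day term, and Benjamini-Hochberg adjustment over 12269 genes, threshold 0.05; SE is the log2 fold change over the square root of F. On simulated data, 88.8% of genes changed 2-fold (a log2 fold change of 1) were recovered, and 2.15% of calls were false, over 12222 genes. The simulated counts held no cull day effect and no library that stood apart across genes, so these rates need not hold for the chemokines. Correlations used a prior count of 2 and 100000 two-sided permutations within age and cull day; the mesothelial list had no tested gene, leaving 4 scores. Named were all 9 chemokines, up to 6 genes per list with the smallest p past the threshold and at least 1 CPM, and 3 likest genes per chemokine; other names are identified as such, and 1 receptor is not reported here. The members and lists were chosen with earlier results of these data known. Alternatives used limma 3.58.1, DESeq2 1.42.0, other scaling, no filter, each cull day, an other-cell covariate, and leaving out libraries. The rest was done in Python 3.11.15 (pandas 2.3.3, numpy 2.4.6, matplotlib 3.10.9, scipy 1.17.1).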

Additional observations from a re-analysis of the deposited data

Results flagged for a closer look

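The level of 4 chemokines in old mice had 1 library far from the other 8 by Dixon's test on log2 CPM, which was applied to 16 groups and by chance picks out about 1 in 20. The genes were chosen with the difference between the ages in view, so that rate need not hold for them. In mouse 1187, Cxcl9 was at 124 CPM, Cxcl10 at 33.3 CPM and Ccl6 at 98.4 CPM. In mouse 1189, Ccl9 was at 166 CPM. The 3 values of mouse 1187 share 1 library and are not independent.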

How the results depend on the processing

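No paired analysis was possible because the library numbers of young and old mice are not shared. The count of the set past the threshold by age, 4, was 2 with limma-voom (Cxcl13 at 2.83 and Ccl6 at 1.13 lost), 3 with no cull day term (Ccl6 lost, Cxcl1 at -0.74), 0 on the first cull day alone and 2 with the other-cell covariate, and 3 to 4 when 1 library was left out. Of all genes tested, 30.9% passed in the main fit, 27.5% with limma-voom and 26.5% with no cull day term. The share was 3.67% on the first day, 13.6% with the covariate and 24.5% to 32.1% when 1 library was left out. Ccl9 was lost without young 1184 (0.49), and Ccl6 without old 1187, 1236, 1240 or 1242 or young 1180, 1182, 1188, 1237, 1239, 1243 or 1244. The covariate turned 5 of the 8 negative: Cxcl13 to -1.07, Ccl6 to -0.86, Cxcl9 to -1.12, Cxcl10 to -0.88 and Cxcl1 to -1.21. DESeq2 gave no adjusted p for Cxcl10 and Cxcl13. By cull day the count of 0 was 1 with DESeq2, 1 with the covariate, and 0 to 1 without 1 library; for the interaction, 0 was 1 with DESeq2, and 0 throughout without 1 library.

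Other ligands past the threshold, 3, were 9 with no filter, 0 on the first day and 1 to 3 without 1 library. Receptors, 2, were 10 of 22 with no filter, 1 on the first day, 1 with the covariate and 2 to 3 without 1 library. Interferon signalling genes, 5, were 3 with no filter, 0 on the first day, 1 with the covariate and 4 to 7 without 1 library. NF-kB and lymphotoxin genes, 4, were 0 on the first day, 7 on the second, 10 without young 1184, 1186 and 1188, 9 without these and 1187, 1 with the covariate and 3 to 9 without 1 library. Of all genes, 24.9% passed with no filter, 3.67% on the first day, 19.3% on the second and 13.6% with the covariate. The share was 27.2% without young 1184, 1186 and 1188, 28.3% without these and 1187, and 24.5% to 32.1% without 1 library. Correlated pairs of chemokines, 10, were 5 without 1187 and 0 without all 4 libraries, and pairs with a score, 21, were 11 and 6; leaving out all 4 together was chosen for the correlations after seeing the data. The cause of these changes was not tested. Genes at a few counts, such as Cx3cl1, are limited by depth.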
